A study of Mus musculus with 40 samples.

Results

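The genes described here are 40 named genes of autophagosome formation, mitophagy and other cargo receptors, lysosomal proteins and the vacuolar ATPase, out of 23621 genes in the table. Membership goes by gene name. These genes and the further lists were chosen with earlier results of these data known, so shares set beside those of all genes only describe them. All 40 were found and all 40 passed the filter on low counts in both muscles, and the lowest count of any of them in any library was 248, for Atg14. Polyadenylated RNA was sequenced in 40 libraries from skeletal muscle of C57BL/6 mice, and no group carries a genetic change in its labels. Glycolytic quadriceps came from 8 groups of 3 libraries. In 4 of them, mice were run until exhausted on a treadmill, starting at zeitgeber time (ZT, hours after lights on) 0 or 12, which are called the ZT0 and ZT12 sessions, and muscle was taken straight after (+0h, labelled ZT0.5 and ZT12.5) or 3 h on (+3h, labelled ZT3.5 and ZT15.5); the other 4 were sedentary mice at ZT0, ZT4, ZT12 and ZT16. Glycolytic gastrocnemius came from 4 groups of 4 libraries, from mice whose running wheel was open by day or by night, sampled at ZT4 and ZT16. The labels give neither the length of wheel access nor the age and sex of the mice, and no gastrocnemius group is sedentary.

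Autophagy wraps cytoplasm in a double membrane, the autophagosome, and delivers it to the lysosome, whose enzymes break it down. In skeletal muscle it clears damaged mitochondria and protein aggregates and frees amino acids when nutrients fall short, and running and fasting are known to raise it. A kinase complex and a lipid kinase complex start the membrane, conjugation enzymes attach small ATG8 proteins to it, receptors tie the cargo to ATG8, and the vacuolar ATPase acidifies the lysosome that receives it. The transcription factors TFEB, TFE3 and FoxO3 are known to switch on many of these genes.

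Library totals ran from 27352875 (treadmill +0h ZT0 replicate 3) to 79491649 estimated counts in quadriceps and from 45010256 to 70033483 in gastrocnemius. Levels are CPM (counts per 1e+06 counts, scaled for library composition) and changes are log2 fold changes with their standard errors (SE). A gene is said to have risen or fallen where its adjusted p was under 0.05 by edgeR's quasi-likelihood test, over 15097 genes in quadriceps or 14523 in gastrocnemius. The muscle label held, since 6 fibre markers, among them Acta1 and Myh4, summed to between 123535 and 194590 CPM in quadriceps and between 141549 and 171194 CPM in gastrocnemius. Adipocyte markers varied within groups, from 295 up to 1771 CPM at treadmill +0h ZT0 and from 453 up to 2345 CPM in sedentary ZT12 muscle, and so did slow fibre markers, with 18 to 1117 CPM at treadmill +3h ZT0. In whole muscle, fewer cells of a type and less RNA per cell cannot be told apart.

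The promoters of 5 genes are shown first. Of the 5 genes that rose at +3h in both sessions and with day wheel access at ZT4, Atp6v0d1, Atp6v1a and Retreg1 share a short motif. Gabarapl1, also among them and the ATG8 gene that rose most, is shown without it. Optn, the remaining gene of these, is not shown, and no match was found for it. Atg14 is the gene whose response differed between sessions. Each run spans 250 bases before to 10 bases after the start in RefSeq's GRCm38.p6 promoter table, 5′ to 3′ on the gene's own strand. The regions are chr8:105566055-105566314 (minus strand) for Atp6v0d1, chr16:44139250-44139509 (minus strand) for Atp6v1a, chr15:25942429-25942688 (plus strand) for Retreg1, chr14:47568425-47568684 (minus strand) for Atg14 and chr6:129532942-129533201 (plus strand) for Gabarapl1. Capitals mark TCACGTG on either strand, and overlapping matches on both strands form 1 run. Counted from the start, the match begins at base -4 in Atp6v0d1, -132 in Atp6v1a, -189 in Retreg1 and -1 in Atg14, and the Gabarapl1 window holds none. Retreg1 has 4 entries in the table, and the 1 with the match was printed. That entry's start lies inside the gene's annotated span. The whole printed Atp6v1a window likewise lies inside the annotated span of Atp6v1a (chr16:44085402-44139702).
Atp6v0d1: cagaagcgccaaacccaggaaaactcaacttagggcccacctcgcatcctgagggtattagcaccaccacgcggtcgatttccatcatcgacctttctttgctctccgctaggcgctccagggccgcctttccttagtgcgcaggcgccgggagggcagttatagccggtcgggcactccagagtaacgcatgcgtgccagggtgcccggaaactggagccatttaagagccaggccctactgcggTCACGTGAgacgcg
Atp6v1a: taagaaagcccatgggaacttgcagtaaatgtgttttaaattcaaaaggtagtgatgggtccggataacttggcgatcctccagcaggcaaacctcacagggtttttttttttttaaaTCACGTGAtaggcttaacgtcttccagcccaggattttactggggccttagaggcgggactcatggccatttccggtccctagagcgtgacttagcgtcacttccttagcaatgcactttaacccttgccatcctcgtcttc
Retreg1: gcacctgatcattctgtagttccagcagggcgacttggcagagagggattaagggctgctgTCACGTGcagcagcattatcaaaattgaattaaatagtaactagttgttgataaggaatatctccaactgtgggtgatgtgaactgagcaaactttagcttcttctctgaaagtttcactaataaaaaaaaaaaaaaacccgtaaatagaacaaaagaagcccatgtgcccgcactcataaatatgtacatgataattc
Atg14: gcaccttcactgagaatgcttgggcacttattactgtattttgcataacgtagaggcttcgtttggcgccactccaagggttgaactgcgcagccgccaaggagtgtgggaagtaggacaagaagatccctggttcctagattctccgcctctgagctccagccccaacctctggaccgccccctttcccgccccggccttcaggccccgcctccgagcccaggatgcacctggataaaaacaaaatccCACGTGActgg
Gabarapl1: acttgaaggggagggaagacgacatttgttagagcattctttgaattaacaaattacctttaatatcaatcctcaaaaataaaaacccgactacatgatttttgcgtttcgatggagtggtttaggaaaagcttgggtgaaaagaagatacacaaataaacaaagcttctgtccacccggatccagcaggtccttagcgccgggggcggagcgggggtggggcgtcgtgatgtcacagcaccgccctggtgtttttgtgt
TCACGTG contains CACGTG, the E-box letters that TFEB and related factors, among others, are known to bind. Both were searched for on both strands of all 32851 promoters of the table, and CACGTG stood in 7.15% and TCACGTG in 3.77% of them. Of the 40 genes, 30 had an entry, with 37 entries in all, and CACGTG stood in 10 of the 37. TCACGTG stood in 8 of the 37, 1 entry each for Atg3, Atg7, Atg14, Atp6v0d1, Atp6v1a, Ctsd, Lamp1 and Retreg1. Of the 14 genes with an entry that rose at +3h, 6 held it, and no share by gene over the whole table was taken. The forkhead letters TGTTTAC stood in 3.65% of all promoters and in 0 of the 37. These are counts of letters and not measurements of binding.

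**Figure D1:**
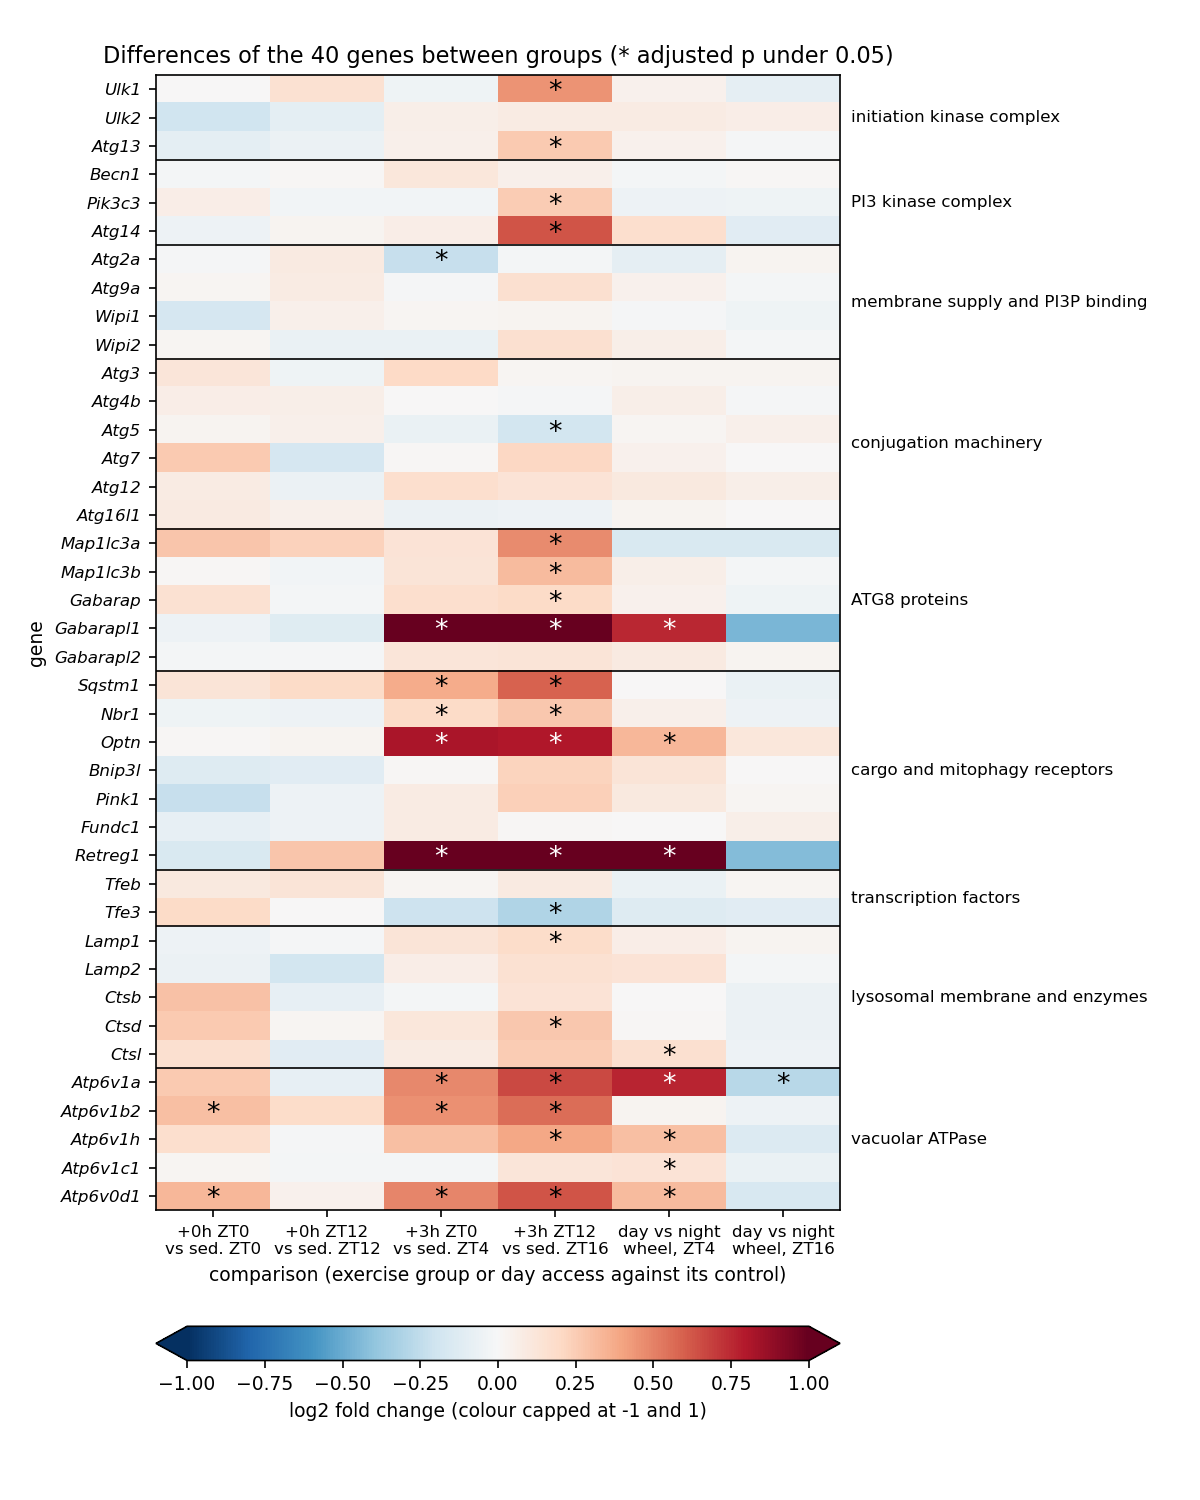
Colour gives the log2 fold change of each of the 40 genes (down the page, by role) in the 4 treadmill comparisons and in day over night access to the wheel at ZT4 and at ZT16 (across); colour ends at 1 and -1, and an asterisk marks an adjusted p under 0.05. Asterisks stand beside 9 genes at +3h ZT0 and 20 at +3h ZT12, against 2 and 0 at +0h.

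Straight after the run, few of these genes had moved. In the ZT0 session 2 of the 40 rose, where 4.29% of all genes rose and 6.82% passed in either direction, and both encode vacuolar ATPase subunits. In the ZT12 session edgeR called 0 of 40, against 4.60% of all genes. Of the 40, 4 had an unadjusted p under 0.05, against 16.9% of all genes. DESeq2 called 0 of the 40 there and 917 of all genes. The median change of the 40 was 0.02 in the ZT0 session and -0.01 in the ZT12 session, beside 0.00 over all genes in each. The +0h response differed between sessions for 0 of the 40 and for 0 of all genes (0%) by edgeR. An unadjusted p under 0.05 was found for 3 of the 40, against 12.7% of all genes. After adjustment, DESeq2 called this difference for 0 of the 40 and for 16 of all genes. Muscle fibre markers summed to 182706 to 194590 CPM at +0h ZT12, against 149313 to 164058 CPM in sedentary ZT12 muscle, with 0 of 6 passing.

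Atp6v0d1, the subunit that joins the membrane part of the pump to its stalk (chr8:105524461-105566064, GRCm38.p6), had 35.5, 32.7 and 37.8 CPM at treadmill +0h ZT0, against 28.9, 27.1 and 28.4 CPM in sedentary ZT0 muscle. The groups did not overlap, and it rose by 0.33 (SE 0.0768, adjusted p = 0.012). Atp6v1b2, a B subunit of the part that binds ATP, had 73.4, 71.5 and 65.8 CPM at treadmill +0h ZT0, against 56.8, 55 and 59.3 CPM in sedentary ZT0 muscle. These did not overlap either, and it rose by 0.30 (SE 0.0758, adjusted p = 0.020). Macrophage markers summed to 155 to 186 CPM in these treadmill libraries, against 112 to 128 CPM in the sedentary ones, and 0 of 7 passed; neutrophil markers summed to 0.957 to 1.13 CPM, against 0.329 to 0.358 CPM, with 0 of 3 passing. Muscle fibre markers summed to 142769 to 181250 CPM, against 123535 to 141858 CPM, with 1 of 6 higher, and endothelial markers to 216 to 224 CPM, against 238 to 288 CPM, with 1 of 5 lower. With a macrophage score in the fit neither gene passed (Atp6v0d1 0.31, Atp6v1b2 0.29), and the part of the neutrophil, fibre and endothelial markers was not tested. The Atp6v0d1 call was also lost with an adipocyte score (0.24) and without treadmill +0h ZT0 replicate 3 (0.29). For Atp6v1b2 it was lost without treadmill +0h ZT0 replicate 1 (0.27), sedentary ZT0 replicate 1 (0.30) or sedentary ZT0 replicate 2 (0.27), and with only the compared libraries (0.29); without treadmill +0h ZT0 replicate 2 the count of genes was 6.

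By +3h many more had moved. In the ZT0 session 8 of the 40 rose, against 6.96% of all genes, and 1 fell, against 6.63%; 13.6% of all genes passed in either direction. In the ZT12 session 18 rose, against 8.70% of all genes, and 2 fell, against 8.53%; 17.2% of all genes passed. The median change of the 40 was 0.08 in the ZT0 session, with 30 of 40 above 0, and 0.20 in the ZT12 session, with 35 of 40 above 0, beside 0.00 over all genes in each. Treadmill and sedentary libraries did not overlap for 17 of the 40 in the ZT0 session, against 30.7% of all genes, and for 28 in the ZT12 session, against 32.9%. The ZT12 count was 13 without treadmill +3h ZT12 replicate 3, 13 without sedentary ZT16 replicate 1 and 11 with sedentary ZT12 muscle as the control. With only the compared libraries it was 12, and Ulk1, Atg13, Pik3c3, Atg5, Gabarap, Lamp1, Ctsd and Atp6v1h no longer passed; with no filter on low counts Ulk1, Atg5, Gabarap, Lamp1 and Ctsd did not. Of the 20 genes, 9 passed under all alternatives run (Map1lc3a, Map1lc3b, Gabarapl1, Sqstm1, Nbr1, Optn, Retreg1, Atp6v1b2 and Atp6v0d1), as did 6 of the 9 in the ZT0 session (Gabarapl1, Sqstm1, Optn, Retreg1, Atp6v1b2 and Atp6v0d1).

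At +3h ZT12, 2 of 3 neutrophil markers rose and the list summed to 0.299 to 3.04 CPM, against 0.0325 to 0.160 CPM in sedentary ZT16 muscle; S100a8 and Retnlg stood at 0 in some quadriceps libraries. There too, 3 of 6 muscle fibre markers rose and the list summed to 161887 to 185171 CPM, against 129829 to 154579 CPM. Endothelial markers summed to 238 to 255 CPM, against 208 to 233 CPM, with 1 of 5 higher and 1 lower. Macrophage markers summed to 114 to 192 CPM at +3h ZT12, against 127 to 193 CPM in sedentary ZT16 muscle, with 1 of 7 lower, and to 100 to 175 CPM at +3h ZT0, against 124 to 173 CPM in sedentary ZT4 muscle, with 0 of 7 passing. Slow fibre markers summed to 122 to 369 CPM at +3h ZT12, against 85.0 to 1673 CPM in sedentary ZT16 muscle. The part of the neutrophil, muscle fibre, slow fibre and endothelial markers in the changes that follow was not tested. With a macrophage score in the fit, 9 of the 40 genes passed at +3h ZT0 and 18 at +3h ZT12, where Gabarap (0.19), Lamp1 (0.17) and Ctsd (0.26) no longer did.

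Of the 7 cargo and mitophagy receptor genes, 4 rose at +3h in each session, where 6.96% (ZT0) and 8.70% (ZT12) of all genes rose. They were Retreg1, Optn, Sqstm1 and Nbr1 in both. Retreg1, a receptor that selects endoplasmic reticulum for autophagy (chr15:25843298-25973696), had 408, 348 and 307 CPM at treadmill +3h ZT0, against 97.4, 78.9 and 86.2 CPM in sedentary ZT4 muscle. In the ZT12 session it had 224, 428 and 620 CPM at treadmill +3h ZT12, against 85.3, 91 and 82.4 CPM in sedentary ZT16 muscle. Every treadmill library was above every sedentary one, and the treadmill ZT12 libraries were the most spread. It rose by 2.02 (SE 0.266, adjusted p = 8.0e-05) and 2.30 (SE 0.268, adjusted p = 1.5e-05). Straight after the run the libraries overlapped, with 92.9, 79.4 and 82.7 CPM at treadmill +0h ZT0, against 123, 76 and 84.1 CPM in sedentary ZT0 muscle, and 117, 82.4 and 90.9 CPM at treadmill +0h ZT12, against 67.3, 91 and 80.7 CPM in sedentary ZT12 muscle.

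Optn, optineurin, binds ubiquitin on damaged mitochondria and hands them to ATG8 proteins (chr2:5020521-5064399). It had 114, 123 and 129 CPM at treadmill +3h ZT0, against 70.1, 68.6 and 69.5 CPM in sedentary ZT4 muscle, and 109, 126 and 139 CPM at treadmill +3h ZT12, against 65.7, 69.7 and 79.8 CPM in sedentary ZT16 muscle. The groups did not overlap in either session, and it rose by 0.82 (SE 0.106, adjusted p = 4.0e-05) and 0.80 (SE 0.106, adjusted p = 2.9e-05). Its +0h libraries overlapped with the controls, at 68.1, 66.2 and 78.5 CPM at treadmill +0h ZT0, against 75.1, 68.2 and 67.5 CPM in sedentary ZT0 muscle, and 76.1, 62.1 and 54.3 CPM at treadmill +0h ZT12, against 66.7, 58.3 and 63.4 CPM in sedentary ZT12 muscle. Sqstm1 (p62) carries ubiquitinated protein into autophagosomes (chr11:50200152-50210820). Its level was 562, 618 and 575 CPM at treadmill +3h ZT0, against 438, 460 and 463 CPM in sedentary ZT4 muscle, and 671, 777 and 778 CPM at treadmill +3h ZT12, against 403, 536 and 539 CPM in sedentary ZT16 muscle, of which sedentary ZT16 replicate 1 was the lowest. Groups did not overlap, and it rose by 0.37 (SE 0.0852, adjusted p = 0.0064) and 0.59 (SE 0.0853, adjusted p = 6.8e-05). Treadmill libraries were also above sedentary ones at +0h, with 445, 456 and 486 CPM at treadmill +0h ZT0, against 410, 428 and 427 CPM in sedentary ZT0 muscle, and 556, 585 and 528 CPM at treadmill +0h ZT12, against 481, 493 and 494 CPM in sedentary ZT12 muscle, but neither difference passed (0.13 and 0.19).

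Nbr1, a relative of Sqstm1 that also binds ubiquitin and ATG8, changed less. It had 113, 114 and 107 CPM at treadmill +3h ZT0, against 93.3, 97.3 and 102 CPM in sedentary ZT4 muscle, and 117, 119 and 115 CPM at treadmill +3h ZT12, against 97, 97.7 and 97.1 CPM in sedentary ZT16 muscle. These did not overlap, and it rose by 0.19 (SE 0.0463, adjusted p = 0.0081) and 0.27 (SE 0.0463, adjusted p = 4.2e-04); the first call was lost without sedentary ZT4 replicate 1 (0.16) and with only the compared libraries (0.19). At +0h its libraries overlapped, with 89.8, 94.3 and 90.1 CPM at treadmill +0h ZT0, against 97, 91.9 and 93.2 CPM in sedentary ZT0 muscle, and 106, 101 and 102 CPM at treadmill +0h ZT12, against 104, 112 and 103 CPM in sedentary ZT12 muscle.

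The remaining 3 genes of this role, which act in mitophagy, passed in no treadmill comparison. Bnip3l (NIX), an outer membrane receptor that binds ATG8 directly, had 60.4, 55.8 and 64.9 CPM at treadmill +3h ZT12, against 52.2, 50.1 and 53.7 CPM in sedentary ZT16 muscle. Those libraries did not overlap, and the difference of 0.22 had an adjusted p of 0.051; it passed with DESeq2 (0.21), with an adipocyte score (0.23) and without treadmill +3h ZT12 replicate 2 (0.27). In the ZT0 session it had 56.4, 57.7 and 59.6 CPM at treadmill +3h ZT0, against 61, 54.4 and 57.5 CPM in sedentary ZT4 muscle. These overlapped, as at +0h, where it had 50.4, 48.5 and 56.3 CPM at treadmill +0h ZT0, against 61.7, 58.1 and 50.4 CPM in sedentary ZT0 muscle, and 61.7, 54.2 and 56.1 CPM at treadmill +0h ZT12, against 61.5, 63.8 and 60.5 CPM in sedentary ZT12 muscle. For Pink1, the kinase that marks depolarised mitochondria, the 4 differences lay between -0.23 and 0.24, and for Fundc1, a receptor known from hypoxia, between -0.08 and 0.08.

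Among the 5 ATG8 genes, 1 rose at +3h ZT0 (against 6.96% of all genes) and 4 at +3h ZT12 (against 8.70%). Gabarapl1, of the GABARAP branch (chr6:129533192-129542331), had 124, 93.1 and 80 CPM at treadmill +3h ZT0, against 45.5, 41.6 and 42.2 CPM in sedentary ZT4 muscle, and 116, 161 and 174 CPM at treadmill +3h ZT12, against 39.6, 43.8 and 39.1 CPM in sedentary ZT16 muscle. Neither session had overlap, and it rose by 1.20 (SE 0.150, adjusted p = 3.6e-05) and 1.88 (SE 0.152, adjusted p = 1.0e-07). Straight after the run it overlapped with its controls, at 40.2, 34.4 and 44.4 CPM at treadmill +0h ZT0, against 47.4, 37.4 and 38.7 CPM in sedentary ZT0 muscle, and 44.7, 38.5 and 38.9 CPM at treadmill +0h ZT12, against 46.7, 44.4 and 41.1 CPM in sedentary ZT12 muscle. Its +3h response was 0.68 larger in the ZT12 session (95% interval 0.27 to 1.09), with an adjusted p of 0.12. That difference passed without treadmill +3h ZT0 replicate 1 (0.87) or treadmill +3h ZT12 replicate 1 (0.84).

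Map1lc3b (LC3B), whose protein is widely used to mark autophagosomes, had 222, 228 and 242 CPM at treadmill +3h ZT12, against 176, 193 and 187 CPM in sedentary ZT16 muscle. The groups were apart, and it rose by 0.32 (SE 0.0716, adjusted p = 0.0040). Libraries touched in the ZT0 session, with 195, 215 and 206 CPM at treadmill +3h ZT0, against 195, 191 and 175 CPM in sedentary ZT4 muscle, and the difference of 0.13 did not pass. At +0h they overlapped, with 182, 179 and 190 CPM at treadmill +0h ZT0, against 190, 182 and 177 CPM in sedentary ZT0 muscle, and 217, 177 and 191 CPM at treadmill +0h ZT12, against 184, 213 and 199 CPM in sedentary ZT12 muscle. Map1lc3a rose by 0.47 (SE 0.0909, adjusted p = 0.0012) at +3h ZT12, to 199 ± 10.9 CPM against 144 ± 2.26 CPM in sedentary ZT16 muscle (SD, n = 3 each). Gabarap rose by 0.19 (adjusted p = 0.042) there, a call lost without treadmill +3h ZT12 replicate 3 (0.13) and without any 1 of the 3 sedentary ZT16 libraries (0.19 to 0.20), with a macrophage score (0.19) and with sedentary ZT12 muscle as the control (0.15). Gabarapl2 passed in no treadmill comparison, with differences between -0.02 and 0.13.

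**Figure D2:**
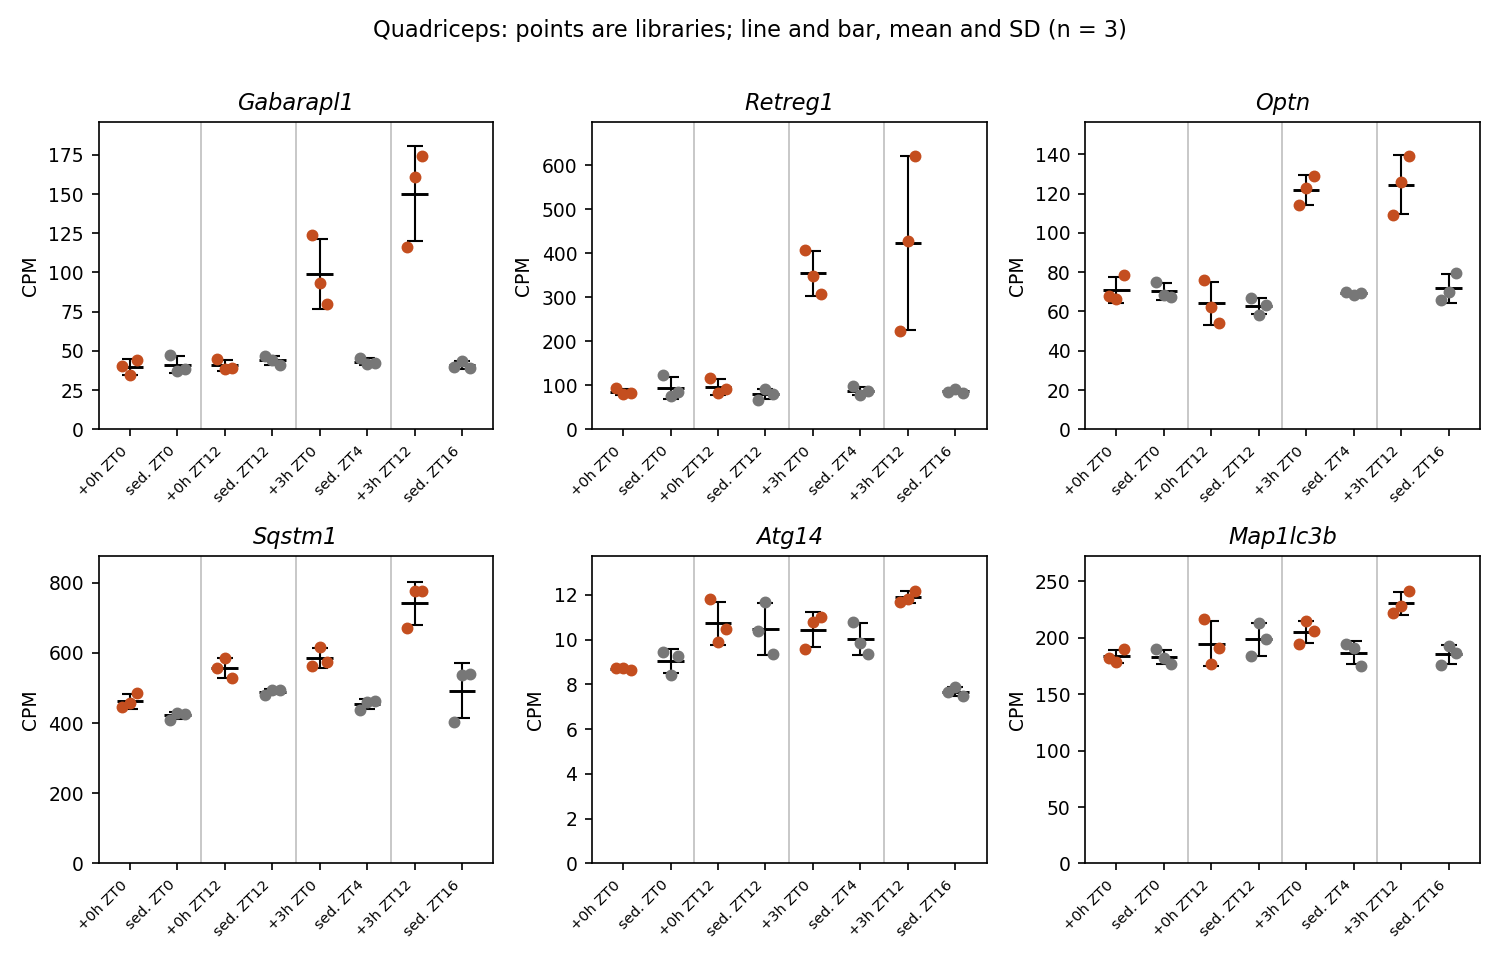
Points are the CPM of single quadriceps libraries for 6 genes in 8 groups, each treadmill group left of its sedentary control, with the mean and SD of 3 libraries. Gabarapl1 lay at 80 to 174 CPM in the +3h treadmill libraries, above all 12 sedentary libraries (37.4 to 47.4 CPM), and at 34.4 to 44.7 CPM in the +0h treadmill libraries.

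Of the 5 vacuolar ATPase genes among the 40, 3 rose at +3h ZT0 (median change 0.46), where 6.96% of all genes rose. At +3h ZT12 4 of the 5 rose (median 0.56), where 8.70% of all genes rose. Atp6v0d1 had 42.4, 41 and 41.7 CPM at treadmill +3h ZT0, against 29.3, 29.9 and 29.7 CPM in sedentary ZT4 muscle, and 43.9, 46.5 and 51 CPM at treadmill +3h ZT12, against 30.1, 29.1 and 31.9 CPM in sedentary ZT16 muscle. Groups did not overlap, and it rose by 0.49 (SE 0.0765, adjusted p = 2.2e-04) and 0.63 (SE 0.0764, adjusted p = 9.0e-06). At +0h in the ZT12 session the libraries overlapped, with 35.5, 33.7 and 28.8 CPM at treadmill +0h ZT12, against 35, 31.5 and 29 CPM in sedentary ZT12 muscle. Atp6v1b2 had 71.6, 83.2 and 77.4 CPM at treadmill +3h ZT0, against 52.2, 59.2 and 57.1 CPM in sedentary ZT4 muscle, and 92, 97.2 and 81.9 CPM at treadmill +3h ZT12, against 59.9, 57.8 and 66.3 CPM in sedentary ZT16 muscle. It too showed no overlap, and rose by 0.46 (SE 0.0758, adjusted p = 3.7e-04) and 0.56 (SE 0.0757, adjusted p = 3.5e-05). At +0h in the ZT12 session it had 67.1, 67 and 58.4 CPM at treadmill +0h ZT12, against 57.8, 57 and 55.2 CPM in sedentary ZT12 muscle, a difference of 0.18 that did not pass.

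Atp6v1a, the catalytic subunit, rose by 0.48 (adjusted p = 0.019) at +3h ZT0 and 0.66 (adjusted p = 0.0016) at +3h ZT12. The first call was lost without treadmill +3h ZT0 replicate 1 (0.40) or sedentary ZT4 replicate 2 (0.43), and the second with sedentary ZT12 muscle as the control (0.29). Atp6v1h, a regulatory subunit, rose by 0.39 (adjusted p = 0.027) at +3h ZT12, and leaving out treadmill +3h ZT12 replicate 3 (0.25) or any 1 of the sedentary ZT16 libraries (0.38 to 0.41) ended that call, as did sedentary ZT12 muscle as the control (0.21). Atp6v1c1 passed in no treadmill comparison, with differences between -0.02 and 0.12. Of 14 further vacuolar ATPase genes, 2 rose at +0h ZT0 (4.29% of all genes rose), 1 at +0h ZT12 (3.19%) and 3 at +3h ZT0 (6.96%), and at +3h ZT12 2 rose (8.70%) and 1 fell (8.53%). Atp6v0c, of the proton-carrying ring, rose by 0.16 (adjusted p = 0.029) at +0h ZT0 and 0.30 (adjusted p = 6.8e-05) at +3h ZT12. Atp6v0a1 rose by 0.19 at +0h ZT0, 0.22 at +0h ZT12 and 0.17 at +3h ZT12, and Atp6ap2 (0.36), Atp6v1d (0.15) and Atp6v1e1 (0.14) rose at +3h ZT0. Tcirg1, an a subunit best known from osteoclasts, fell by 0.54 (adjusted p = 0.0012) on the log2 scale at +3h ZT12, to 6.73 CPM against 9.75 CPM in sedentary ZT16 muscle.

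**Figure D3:**
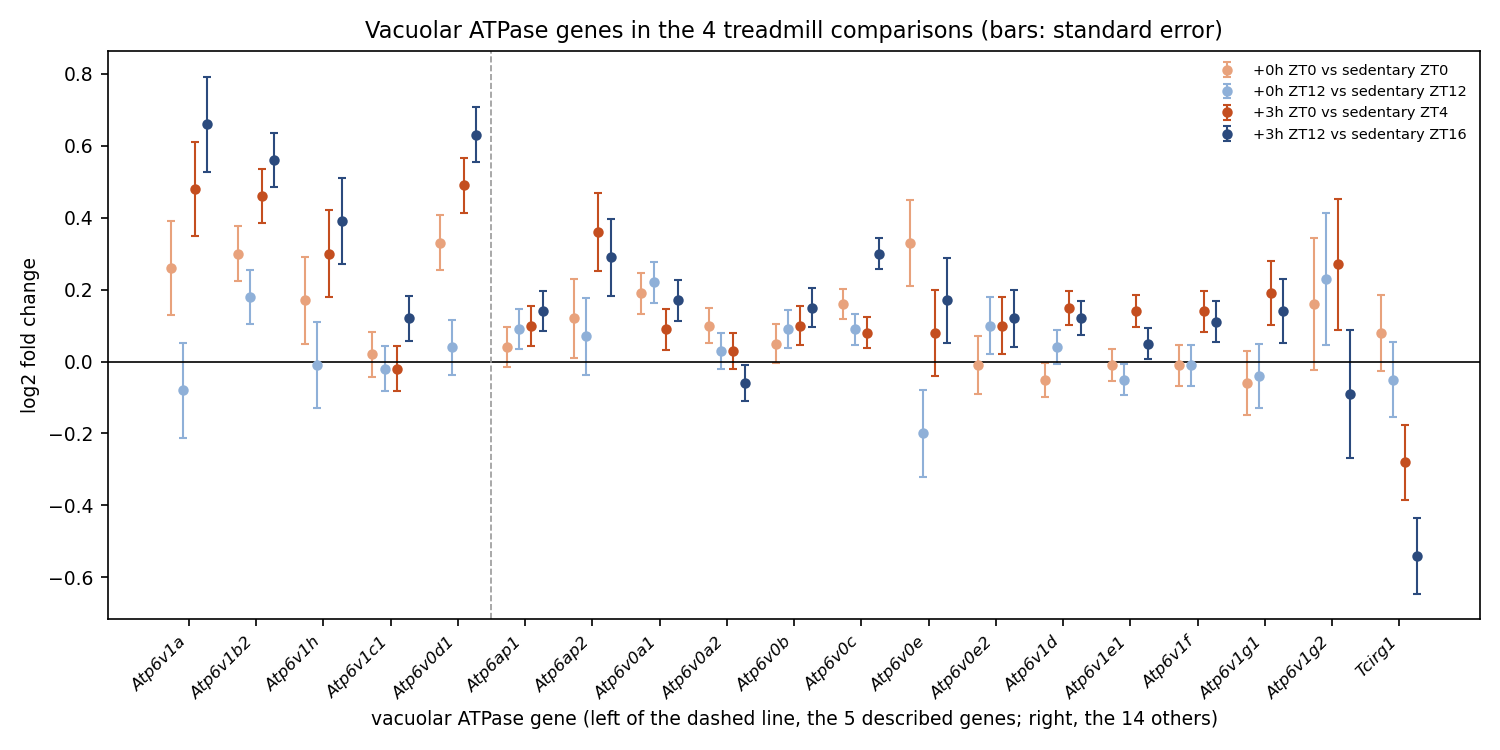
Points are log2 fold changes and bars their SE for 19 vacuolar ATPase genes in the 4 treadmill comparisons, with the 5 genes among the 40 first. Atp6v1a, Atp6v1b2 and Atp6v0d1 reached 0.48, 0.46 and 0.49 at +3h ZT0 and 0.66, 0.56 and 0.63 at +3h ZT12, and Tcirg1 stood at -0.54 at +3h ZT12.

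Of the 6 genes of the complexes that start the autophagosome, 4 rose at +3h ZT12, where 8.70% of all genes rose. At +3h ZT0 0 of the 6 passed, where 13.6% of all genes passed. Ulk1, the kinase at the head of the pathway (chr5:110784489-110810120), had 149, 182 and 158 CPM at treadmill +3h ZT12, against 91.4, 139 and 128 CPM in sedentary ZT16 muscle. Those did not overlap, and it rose by 0.45 (SE 0.145, adjusted p = 0.039). In the ZT0 session it had 108, 129 and 157 CPM at treadmill +3h ZT0, against 125, 146 and 134 CPM in sedentary ZT4 muscle. These overlapped, as at +0h, where it had 128, 116 and 106 CPM at treadmill +0h ZT0, against 116, 114 and 121 CPM in sedentary ZT0 muscle, and 131, 156 and 112 CPM at treadmill +0h ZT12, against 112, 123 and 125 CPM in sedentary ZT12 muscle. The rise did not pass without treadmill +3h ZT12 replicate 2 (0.36), treadmill +3h ZT12 replicate 3 (0.47) or sedentary ZT16 replicate 1 (0.29). Atg13, the adaptor of the complex, rose by 0.26 (adjusted p = 0.012), and that call was lost without treadmill +3h ZT12 replicate 2 (0.21) or sedentary ZT16 replicate 1 (0.21) and with sedentary ZT12 muscle as the control (0.13). Ulk2 differed by 0.08 there and did not pass.

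Atg14, which brings the lipid kinase to the site of autophagosome formation (chr14:47540893-47568434), had 11.7, 11.8 and 12.2 CPM at treadmill +3h ZT12, against 7.66, 7.88 and 7.49 CPM in sedentary ZT16 muscle. The groups did not overlap, and it rose by 0.63 (SE 0.0830, adjusted p = 2.5e-05). In the ZT0 session it had 9.57, 10.8 and 11 CPM at treadmill +3h ZT0, against 10.8, 9.87 and 9.38 CPM in sedentary ZT4 muscle, with overlap. Its +0h libraries overlapped as well, at 8.72, 8.74 and 8.63 CPM at treadmill +0h ZT0, against 9.43, 8.41 and 9.29 CPM in sedentary ZT0 muscle, and 11.8, 9.88 and 10.5 CPM at treadmill +0h ZT12, against 10.4, 11.7 and 9.38 CPM in sedentary ZT12 muscle. With sedentary ZT12 muscle as the control the +3h ZT12 difference was 0.18 and did not pass. Pik3c3, the kinase itself, rose by 0.25 (adjusted p = 0.014) at +3h ZT12, to 19.8 ± 1.13 CPM against 16.6 ± 1.42 CPM in sedentary ZT16 muscle (SD, n = 3 each). Against sedentary ZT12 muscle it differed by -0.15 and did not pass, and the call was lost without treadmill +3h ZT12 replicate 3 (0.21) or sedentary ZT16 replicate 1 (0.20). Becn1, the third member of this complex, passed in no treadmill comparison, with differences between -0.02 and 0.11.

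Among genes of membrane supply and ATG8 conjugation, only Atg2a passed at +3h ZT0 and only Atg5 at +3h ZT12. Of all genes, 13.6% and 17.2% passed there. Atg2a, which moves lipid into the growing membrane, fell by 0.23 (adjusted p = 0.030) on the log2 scale at +3h ZT0, to 32 ± 0.986 CPM against 37.6 ± 1.10 CPM in sedentary ZT4 muscle (SD, n = 3 each). It was lost without treadmill +3h ZT0 replicate 2 or 3 (-0.21 and -0.24), sedentary ZT4 replicate 2 or 3 (-0.23 and -0.22), or with sedentary ZT0 muscle as the control (-0.14). Atg5, part of the enzyme that attaches ATG8 to lipid, fell by 0.18 (adjusted p = 0.032) on the log2 scale at +3h ZT12, to 9.42 ± 0.499 CPM against 10.7 ± 0.523 CPM in sedentary ZT16 muscle (SD, n = 3 each). This call was lost without treadmill +3h ZT12 replicate 1 or 3 (-0.16 and -0.16) or sedentary ZT16 replicate 2 (-0.14), and against sedentary ZT12 muscle (-0.05). The other 8 genes of these roles (Atg9a, Wipi1, Wipi2, Atg3, Atg4b, Atg7, Atg12 and Atg16l1) passed in no treadmill comparison, with differences between -0.17 and 0.26. In those comparisons 4.60% to 17.2% of all genes passed.

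Of 5 lysosomal membrane and enzyme genes, 2 rose at +3h ZT12, where 8.70% of all genes rose. In the other treadmill comparisons 0 passed, where 4.60% to 13.6% of all genes passed. Lamp1, an abundant membrane protein of the lysosome, rose by 0.18 (adjusted p = 0.034) and Ctsd, an aspartic protease, by 0.27 (adjusted p = 0.037). Without treadmill +3h ZT12 replicate 3 they stood at 0.13 and 0.24 and without sedentary ZT16 replicate 1 at 0.17 and 0.17, and did not pass; Lamp1 was also lost without sedentary ZT16 replicate 2 (0.17) and Ctsd without treadmill +3h ZT12 replicate 2 (0.24). Both calls were lost with a macrophage score (0.17 and 0.26), and Lamp1 with sedentary ZT12 muscle as the control (0.12). Ctsl, a cysteine protease known to rise in muscle atrophy, had 117, 112 and 123 CPM at treadmill +3h ZT12, against 108, 88.4 and 99.8 CPM in sedentary ZT16 muscle. These did not overlap, but the difference of 0.25 had an adjusted p of 0.071; it passed without sedentary ZT16 replicate 1 (0.32) and with an adipocyte (0.27) or macrophage (0.28) score. Ctsl in the ZT0 session had 116, 116 and 109 CPM at treadmill +3h ZT0, against 107, 104 and 111 CPM in sedentary ZT4 muscle, with overlap. At +0h its libraries overlapped too, with 106, 103 and 123 CPM at treadmill +0h ZT0, against 103, 104 and 89.7 CPM in sedentary ZT0 muscle, and 130, 108 and 115 CPM at treadmill +0h ZT12, against 125, 142 and 112 CPM in sedentary ZT12 muscle. Lamp2 and Ctsb passed in no treadmill comparison, with differences between -0.18 and 0.29.

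Of the transcription factors, Tfe3 fell by 0.30 (adjusted p = 0.034) on the log2 scale at +3h ZT12, and leaving out treadmill +3h ZT12 replicate 1 or 2 (-0.26 and -0.29) or any 1 of the sedentary ZT16 libraries (-0.28, -0.32 and -0.30) ended that call, as did sedentary ZT12 muscle as the control (-0.26). Tfeb passed in no treadmill comparison, with differences between 0.02 and 0.13.

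All 8 genes that rose at +3h in the ZT0 session also rose in the ZT12 session, 44.4% of the 18 there. Over all genes, 543 rose in both, 51.7% of those of the ZT0 session and 41.3% of those of the ZT12 session, and the comparisons share no library. The difference between sessions passed for 1 of the 40, where it was higher in 0.649% of all genes and passed in 1.59%. That gene was Atg14, whose response was 0.57 larger in the ZT12 session (SE 0.117, adjusted p = 0.018, 95% interval 0.34 to 0.80). The controls differed in Atg14 too, a log2 difference of -0.38 at ZT16 against ZT4 (SE 0.0828, adjusted p = 0.0066), in the same libraries that serve the responses. The median difference over the 40 was 0.14, with 32 of 40 above 0, beside 0.01 over all genes. For Optn the difference was -0.02 (95% interval -0.31 to 0.27), for Retreg1 0.28 (-0.43 to 0.99) and for Ulk1 0.49 (0.09 to 0.89, adjusted p = 0.30).

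**Figure D4:**
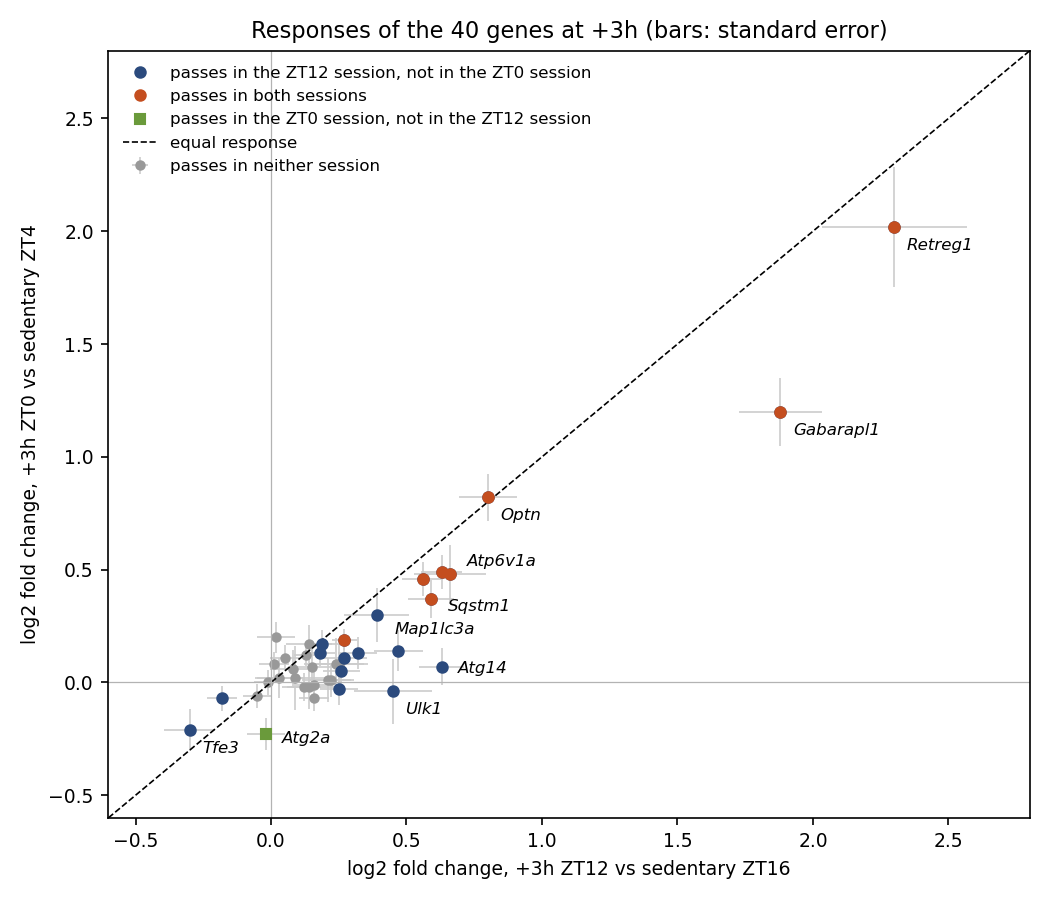
Each point is 1 of the 40 genes, with its log2 fold change at +3h in the ZT12 session on the x axis and in the ZT0 session on the y axis and bars of 1 SE; the dashed line marks equal responses. Optn (0.80 on x and 0.82 on y) lies on the line and Atg14 (0.63 on x and 0.07 on y) to the right of it.

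Of 141 further genes of the pathway in 8 lists, 139 were tested. At +0h ZT0 5 rose and 1 fell, at +0h ZT12 1 rose, at +3h ZT0 17 rose and 2 fell, and at +3h ZT12 32 rose and 6 fell, with medians of 0.04, 0.00, 0.03 and 0.09, beside 0.00 over all genes in each. Over all genes 4.29% rose and 2.53% fell at +0h ZT0, 3.19% rose at +0h ZT12, 6.96% rose and 6.63% fell at +3h ZT0, and 8.70% rose and 8.53% fell at +3h ZT12. Of 29 genes that control TFEB, mTORC1 and FoxO, 6 rose at +3h ZT0 and 8 at +3h ZT12. Flcn, folliculin, acts with Fnip1 and Fnip2 on Rag GTPases at the lysosome and is known to keep TFEB and TFE3 out of the nucleus. Flcn rose by 0.69 (SE 0.104, adjusted p = 1.6e-04) at +3h ZT0, to 123 CPM against 76.1 CPM in sedentary ZT4 muscle, and by 1.19 (SE 0.105, adjusted p = 1.8e-07) at +3h ZT12, to 130 CPM against 57 CPM in sedentary ZT16 muscle. Fnip1 rose by 0.81 and 0.64, Fnip2 by 0.59 and 0.85, and Rheb, the GTPase that activates mTORC1, by 0.26 and 0.28. Foxo1 rose by 1.34 (adjusted p = 0.0019) and 1.33 (adjusted p = 0.0013) and Foxo3 by 0.54 and 0.85, both FoxO factors, and Foxk1, a repressor of autophagy genes, by 0.38 at +3h ZT12. Mitf, a relative of Tfeb, fell by 0.27 (adjusted p = 0.028) on the log2 scale at +0h ZT0.

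Of 17 lysosomal membrane and transport genes, 2 rose at +3h ZT0 (against 6.96% of all genes) and 5 at +3h ZT12 (against 8.70%). Npc1, which exports cholesterol from the lysosome, rose by 0.75 (SE 0.173, adjusted p = 0.0067) at +3h ZT0, to 164 CPM against 97.5 CPM in sedentary ZT4 muscle, and by 1.69 (SE 0.177, adjusted p = 2.7e-06) at +3h ZT12, to 185 CPM against 57 CPM in sedentary ZT16 muscle. Cd63, a tetraspanin of late endosomes, rose by 0.31 and 0.29, and Scarb2 (0.34) and the calcium channel Mcoln1 (0.24) rose at +3h ZT12. Of 33 hydrolases and activators, 2 rose at +0h ZT0 (against 4.29% of all genes), 3 rose and 1 fell at +3h ZT0 (against 6.96% and 6.63%), and 8 rose and 2 fell at +3h ZT12 (against 8.70% and 8.53%). Gla, alpha-galactosidase, rose by 0.81 at +0h ZT0, 0.88 at +3h ZT0 and 1.08 at +3h ZT12. Neu1, a sialidase, rose by 0.24 at +0h ZT0. Idua, which acts on glycosaminoglycans, rose by 0.27 and 0.46 at +3h, Hexa by 0.20 at +3h ZT0, and Gaa, which digests glycogen, by 0.47 (adjusted p = 5.1e-04) and Ctsf by 0.29 at +3h ZT12. Ctsc, a cysteine protease, fell by 0.50 (adjusted p = 0.0033) on the log2 scale at +3h ZT0.

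Of 13 fusion genes, 1 rose at +0h ZT0 (against 4.29% of all genes), 2 at +3h ZT0 (against 6.96%) and 5 at +3h ZT12 (against 8.70%). Vps18, a core subunit of the tether that joins autophagosome and lysosome, rose by 0.34 at +0h ZT0, 0.39 at +3h ZT0 and 0.74 at +3h ZT12. Rab7, the GTPase of late endosomes, rose by 0.52 (adjusted p = 8.7e-05) and 0.31 (adjusted p = 0.0055) at +3h, and Vps11 (0.23) and Vps16 (0.22) at +3h ZT12. Of 13 further initiation genes, 1 rose and 1 fell at +3h ZT0 (against 6.96% and 6.63%) and 3 rose and 2 fell at +3h ZT12 (against 8.70% and 8.53%). Nrbf2, a subunit of the lipid kinase complex, fell by 0.56 (adjusted p = 3.9e-05) on the log2 scale at +3h ZT0, where Vmp1 rose by 0.15. Rubcn, a brake on that kinase, fell by 0.40 (adjusted p = 0.0013) and Wdr45b by 0.26 on the log2 scale at +3h ZT12, where Zfyve1 (0.39) and Wdr45 (0.31) rose. Of 14 further receptors, Bnip3, a relative of Bnip3l, rose by 0.38 (adjusted p = 0.012) at +3h ZT12, and of 6 further conjugation genes Atg4c fell by 0.44 (adjusted p = 0.0035) on the log2 scale there.

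Time of day without exercise was compared among the sedentary groups. Between the 4 sedentary groups 7 of the 40 differed by an F test, against 17.1% of all genes: Pik3c3, Atg7, Atg14, Atg5, Ctsl, Nbr1 and Atg2a. At ZT12 against ZT0, 4 rose, against 7.58% of all genes, and 1 fell, against 8.56%; 16.1% of all genes passed. Pik3c3 rose by 0.51 (SE 0.0695, adjusted p = 5.3e-05), to 22 ± 1.12 CPM against 15.4 ± 0.772 CPM (SD, n = 3 each). Atg7, the enzyme that activates ATG8, had 11.1, 11.4 and 9.86 CPM at ZT12, against 7.65, 7.47 and 7.17 CPM at ZT0, and rose by 0.54 (SE 0.0974, adjusted p = 9.6e-04). Neither gene's libraries overlapped. Nbr1 rose by 0.18 (adjusted p = 0.013) and Ctsl by 0.35 (adjusted p = 0.013), and Atg5 fell by 0.22 (adjusted p = 0.010) on the log2 scale. Gabarapl1 and Retreg1 did not pass in the F test, and their 12 sedentary libraries lay at 37.4 to 47.4 CPM and 67.3 to 123 CPM.

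The Nbr1 and Ctsl calls at ZT12 were lost without sedentary ZT0 replicate 3 (0.17 and 0.29) or sedentary ZT12 replicate 2 (0.14 and 0.26), and the Atg5 call without sedentary ZT12 replicate 1 (-0.20). The ZT12 count was 8 without sedentary ZT12 replicate 3, and that of the F test 3 without sedentary ZT12 replicate 2. Adipocyte markers summed to 453 to 2345 CPM at ZT12, against 228 to 651 CPM at ZT0, with 1 of 7 higher, and with an adipocyte score Ctsl (0.19) and Atg5 (-0.15) did not pass. With only the compared libraries Nbr1 (0.18), Ctsl (0.35) and Atg5 (-0.22) did not. Endothelial markers summed to 157 to 208 CPM at ZT12, against 238 to 288 CPM at ZT0, with 4 of 5 lower. Muscle fibre markers summed to 149313 to 164058 CPM at ZT12, against 123535 to 141858 CPM at ZT0, with 1 of 6 higher, and neutrophil markers to 0.112 to 0.186 CPM, against 0.329 to 0.358 CPM, with 0 of 3 passing. The part of these 3 lists was not tested. At ZT16 against ZT4, 1 of 40 fell, Atg14, where 3.67% of all genes fell and 7.16% passed. Neutrophil markers summed to 0.0325 to 0.160 CPM at ZT16, against 0.163 to 0.581 CPM at ZT4, with 0 of 3 passing, and 1 of 5 endothelial markers was lower; their part was not tested.

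In gastrocnemius at ZT4, 8 of the 40 genes were higher with day than with night wheel access, against 6.36% of all genes, and 0 were lower, against 6.78%; 13.1% of all genes passed. The median difference was 0.05, beside -0.01 over all genes. Atp6v1a had 27.8, 28.2, 30 and 30.9 CPM with day access, against 18.2, 16.5, 17.6 and 16.8 CPM with night access, and rose by 0.76 (SE 0.0586, adjusted p = 4.9e-07). Retreg1 had 215, 209, 272 and 256 CPM with day access, against 110, 105, 95.4 and 112 CPM with night access, and rose by 1.17 (SE 0.106, adjusted p = 2.4e-05). Gabarapl1 had 53, 63.6, 78.9 and 70.3 CPM with day access, against 38.8, 39.3, 34.2 and 45.3 CPM with night access, and rose by 0.75 (SE 0.103, adjusted p = 3.6e-04). In each of these the day libraries were all above the night libraries. So they were for Atp6v0d1, which had 34.1, 33.3, 34.8 and 37.4 CPM with day access, against 27.5, 28.3, 26.4 and 29.2 CPM with night access, and rose by 0.32 (SE 0.0535, adjusted p = 7.6e-04).

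Optn had 85.4, 88.2, 99.8 and 106 CPM with day access, against 71.7, 74.2, 71.7 and 84.9 CPM with night access at ZT4, and rose by 0.33 (adjusted p = 0.012). Ctsl had 88.8, 93.4, 97.9 and 96.7 CPM with day access, against 83.4, 84.1, 86.4 and 84.1 CPM with night access, and rose by 0.16 (adjusted p = 0.019). Neither overlapped, whereas the libraries of Atp6v1h, which rose by 0.30 (adjusted p = 0.018), did. Atp6v1c1 rose by 0.14 (adjusted p = 0.046), a call lost without any 1 of 7 libraries (night wheel ZT4 replicates 1, 2 and 4 and the 4 day wheel ZT4 libraries, 0.11 to 0.16), with no filter (0.15) and with only the compared libraries (0.14). Ctsl and Atp6v1h were lost without day wheel ZT4 replicate 3 (0.14 and 0.23) or 4 (0.14 and 0.27), and Atp6v1h without night wheel ZT4 replicate 2 (0.25); the count was 5 without day wheel ZT4 replicate 3 and 5 without replicate 4. Macrophage markers summed to 83.8 to 98.4 CPM with day access, against 106 to 128 CPM with night access, with 1 of 7 lower, and endothelial markers to 184 to 210 CPM, against 231 to 245 CPM, with 3 of 5 lower. With a macrophage score 5 of the 40 passed, and Optn (0.30), Ctsl (0.14), Atp6v1h (0.26) and Atp6v1c1 (0.17) did not; the part of the endothelial markers was not tested.

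Of the other genes followed in every library, 7 did not pass at ZT4. Sqstm1 had 469, 460, 416 and 492 CPM with day access, against 445, 447, 442 and 505 CPM with night access. Ulk1 had 120, 122, 111 and 130 CPM with day access, against 113, 108, 113 and 138 CPM with night access. Libraries of both overlapped, as did those of Map1lc3b, with 169, 171, 176 and 183 CPM by day, against 161, 170, 175 and 164 CPM by night, and of Nbr1, with 98.9, 99.1, 97.8 and 103 CPM by day, against 100, 97.4, 93.8 and 94.1 CPM by night. Atg14 had 10.4, 10.6, 9.92 and 12.3 CPM with day access, against 8.74, 9.49, 9.94 and 10.2 CPM with night access. Atp6v1b2 had 55.9, 52.7, 57.7 and 57.1 CPM with day access, against 51.6, 53.4, 58.8 and 55 CPM with night access. These overlapped too. Bnip3l had 58.5, 58.3, 58.2 and 57.3 CPM with day access, against 54, 55.9, 54.5 and 48.3 CPM with night access, without overlap, and its difference of 0.13 did not pass.

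**Figure D5:**
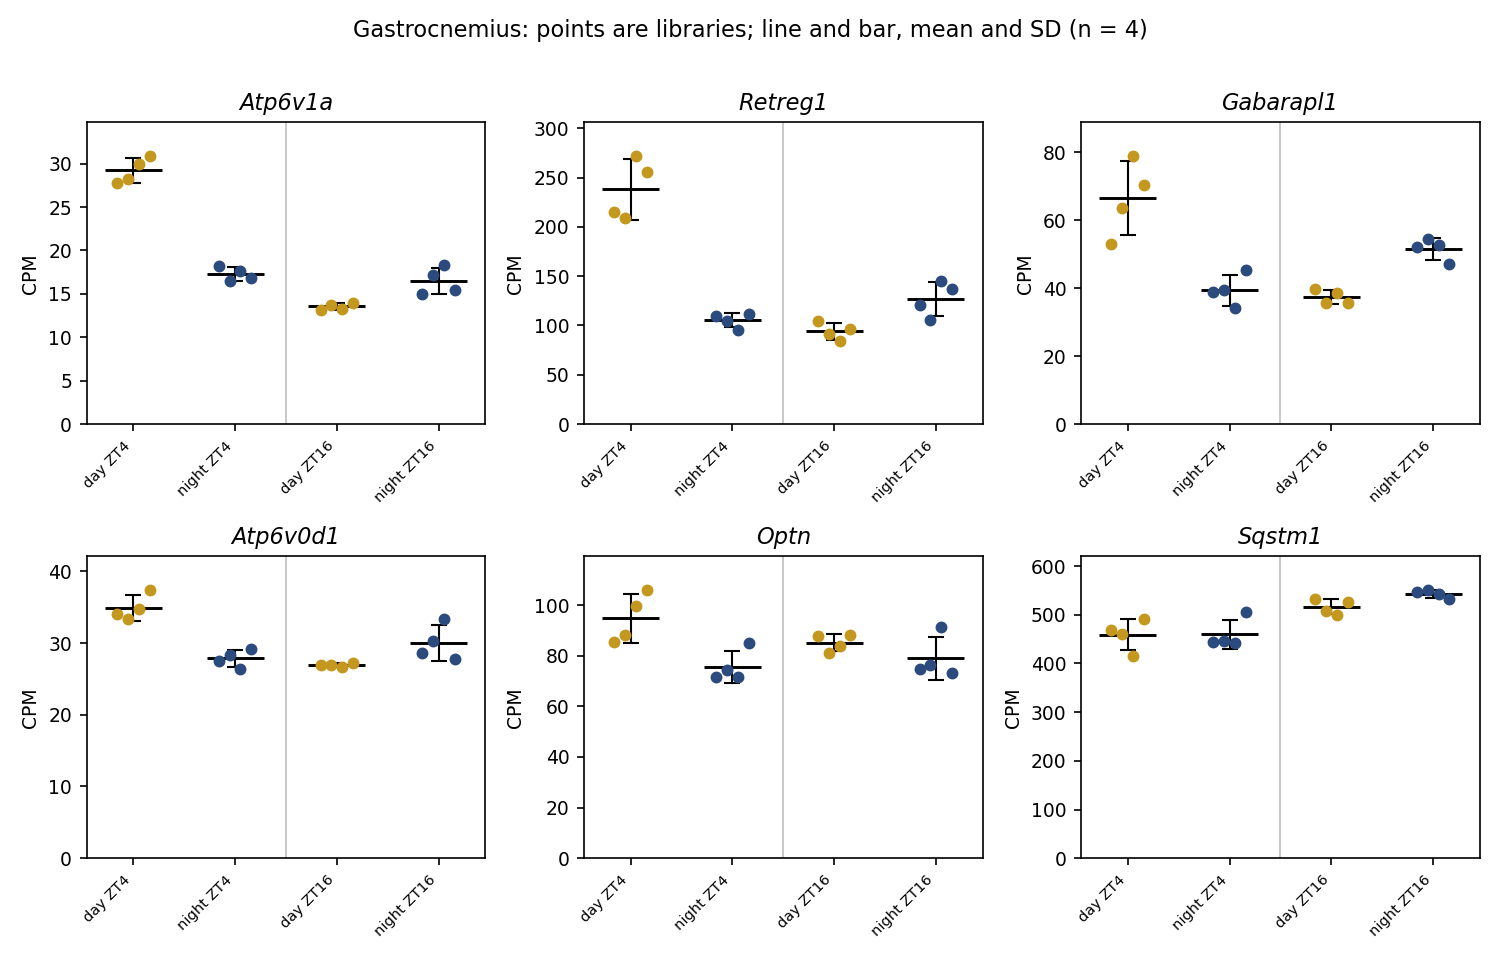
Points are the CPM of single gastrocnemius libraries for 6 genes in the 4 wheel groups, day left of night at each time, with the mean and SD of 4 libraries. Day access at ZT4 gave 27.8 to 30.9 CPM for Atp6v1a and 209 to 272 CPM for Retreg1, above the other 12 libraries (13.2 to 18.3 CPM and 84.3 to 145 CPM).

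At ZT16, 1 of the 40 fell with day against night access, where 0.289% of all genes fell and 0.565% passed. Atp6v1a ranged over 13.2 to 14 CPM with day access, against 15 to 18.3 CPM with night access, and fell by 0.28 (SE 0.0601, adjusted p = 0.042) on the log2 scale. Its libraries did not overlap, but the call was lost without night wheel ZT16 replicate 2 (-0.26) or 3 (-0.23) and without any 1 of the day wheel ZT16 libraries (-0.27, -0.29, -0.27 and -0.30). It was also lost with the replicate block (-0.28), with an adipocyte score (-0.27) and with only the compared libraries (-0.28). Retreg1 had 105, 91.8, 84.3 and 96.2 CPM with day access, against 121, 106, 145 and 137 CPM with night access. Gabarapl1 had 39.8, 35.7, 38.5 and 35.7 CPM with day access, against 52.1, 54.4, 52.8 and 47 CPM with night access. Atp6v0d1 had 26.9, 26.9, 26.6 and 27.2 CPM with day access, against 28.6, 30.3, 33.4 and 27.8 CPM with night access. In these 3 genes all day libraries were below all night libraries, but the differences (-0.43, -0.46 and -0.16) did not pass.

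The other genes followed in every library overlapped at ZT16. Sqstm1 had 533, 507, 500 and 526 CPM by day, against 546, 551, 542 and 532 CPM by night. Optn had 87.7, 81, 83.9 and 88.1 CPM by day, against 74.7, 76.5, 91.4 and 73.3 CPM by night. Ulk1 had 105, 108, 102 and 110 CPM by day, against 118, 111, 109 and 114 CPM by night. None of these differences passed. Map1lc3b had 187, 163, 174 and 162 CPM by day, against 176, 171, 180 and 169 CPM by night. Nbr1 had 102, 102, 98.3 and 99.6 CPM by day, against 111, 104, 97.7 and 104 CPM by night. Bnip3l had 52.8, 51.1, 52.1 and 55.1 CPM by day, against 51.9, 48.1, 54.1 and 56.8 CPM by night. These did not pass either. Ctsl had 88.8, 88.5, 90.1 and 84.8 CPM by day, against 93, 95.3, 91.4 and 84.6 CPM by night. Atg14 had 7.73, 8.28, 8.34 and 7.38 CPM by day, against 8.15, 6.84, 9.44 and 9.77 CPM by night. Atp6v1b2 had 59.3, 56.4, 50.9 and 54 CPM by day, against 56, 60.7, 59.8 and 52.3 CPM by night. Their differences did not pass.

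Within day access, 4 of the 40 were higher at ZT16 than at ZT4, against 7.70% of all genes, and 6 lower, against 7.17%; 14.9% of all genes passed. Atp6v1a fell by 1.11 (SE 0.0594, adjusted p = 1.2e-09) on the log2 scale, Retreg1 by 1.34 (SE 0.106, adjusted p = 2.0e-06), Gabarapl1 by 0.83 (SE 0.103, adjusted p = 7.5e-05) and Atp6v0d1 by 0.37 (SE 0.0535, adjusted p = 1.0e-04). Atg14 (-0.44) and Atp6v1h (-0.33) also fell, and Tfeb (0.32), Atg2a (0.26), Pik3c3 (0.19) and Sqstm1 (0.17) rose. The Tfeb call was lost without day wheel ZT4 replicate 3 (0.27), the Sqstm1 call without day wheel ZT4 replicate 2 or 3 or day wheel ZT16 replicate 1 or 4 (0.12 to 0.17) or with only the compared libraries (0.17), and the Pik3c3 call without day wheel ZT4 replicate 1, 2 or 3 or day wheel ZT16 replicate 1 or 3 (0.17 to 0.18).

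Within night access, 3 of the 40 rose at ZT16 against ZT4, where 9.41% of all genes rose and 18.8% passed. Sqstm1 rose by 0.24 (SE 0.0505, adjusted p = 0.0023), to 543 ± 7.91 CPM against 460 ± 30 CPM (SD, n = 4 each). Gabarapl1 rose by 0.39 (adjusted p = 0.016), lost without night wheel ZT4 replicate 3 (0.32) and with a macrophage score (0.32). Macrophage markers summed to 84.2 to 95.4 CPM at ZT16, against 106 to 128 CPM at ZT4, with 3 of 7 lower. Endothelial markers summed to 175 to 222 CPM at ZT16, against 231 to 245 CPM at ZT4, with 2 of 5 lower, and fibroblast markers to 503 to 641 CPM, against 668 to 866 CPM, with 2 of 4 lower. Neutrophil markers summed to 0.153 to 0.386 CPM at ZT16, against 0.802 to 0.883 CPM at ZT4, with 0 of 2 passing, and the part of these 3 lists was not tested. Pik3c3 rose by 0.18 (adjusted p = 0.044), lost without night wheel ZT4 replicate 1, 2 or 3 or night wheel ZT16 replicate 1, 2 or 4 (0.14 to 0.17), with an adipocyte (0.17) or macrophage (0.16) score, with no filter (0.17) and with only the compared libraries (0.17). These comparisons use the libraries of the comparisons between schedules.

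The change at ZT16 against ZT4 differed between schedules for 7 of the 40, against 9.74% of all genes, and was lower under day access in all 7, where 5.07% of all genes were lower and 4.68% higher. The day minus night difference was -1.60 for Retreg1 (SE 0.149, adjusted p = 2.2e-05), -1.22 for Gabarapl1 (SE 0.146, adjusted p = 1.3e-04), -1.04 for Atp6v1a (SE 0.0839, adjusted p = 6.5e-07) and -0.48 for Atp6v0d1 (SE 0.0758, adjusted p = 6.2e-04). These 4 passed under all alternatives run. It was -0.44 (adjusted p = 0.018) for Atp6v1h, -0.21 (adjusted p = 0.033) for Ctsl and -0.21 (adjusted p = 0.047) for Atp6v1c1. With a macrophage score the Atp6v1h (-0.40) and Ctsl (-0.19) calls were lost, and the Atp6v1c1 call with an adipocyte score (-0.19), no filter (-0.21) or the replicate block (-0.21). The Ctsl call was lost without any 1 of 9 of the 16 libraries (night wheel ZT4 replicates 1 and 2, day wheel ZT4 replicates 3 and 4, night wheel ZT16 replicates 1, 2 and 3 and day wheel ZT16 replicates 2 and 4), and the Atp6v1c1 call without any 1 of 14, all but night wheel ZT4 replicate 3 and night wheel ZT16 replicate 2.

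The genes that rose in +3h ZT0, +3h ZT12 and day wheel ZT4 alike were 5: Atp6v0d1, Atp6v1a, Gabarapl1, Optn and Retreg1. These comparisons share no library. The 5 were 62.5% of the genes that rose at +3h ZT0 and 62.5% of those that rose with day access at ZT4, where 264 shared genes over the whole table were 25.1% and 28.6%. Between +3h ZT12 and day access at ZT4, 6 (Atp6v1h added) were 33.3% and 75.0%, where 215 shared genes were 16.4% and 23.3%. Outside the 40, Flcn (0.67), Fnip1 (0.96), Fnip2 (0.88) and Foxo3 (0.55) rose with day access at ZT4, and Nrbf2 fell by 0.47 (adjusted p = 3.1e-05) on the log2 scale.

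Over all 40 libraries the highest level of Retreg1 was 9.23 times its lowest and that of Gabarapl1 5.08 times, followed by Optn (2.56) and Atp6v1a (2.34). For 36 of the 40 genes it was under 2 times. Of the 40, 15 passed in none of the 14 comparisons: Ulk2, Becn1, Atg9a, Wipi1, Wipi2, Atg3, Atg4b, Atg12, Atg16l1, Gabarapl2, Bnip3l, Pink1, Fundc1, Lamp2 and Ctsb. Levels of 8 genes are uncertain to the extent that exons overlap another coding gene, on the other strand for 7 of them (Atg9a, Atp6v1h, Becn1, Ctsb, Lamp1, Map1lc3b and Sqstm1) and on its own strand for Ctsd. Exons of Atg14, Gabarapl1, Optn and Ctsl also overlap noncoding genes on the other strand. Those of Atg9a and Pink1 overlap noncoding genes, and those of Ctsl a pseudogene, on their own strand.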

How the data were processed

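The deposited table holds estimated counts per gene for 40 libraries, each in 2 lanes (80 columns), which the authors made with bcl2fastq 2.20.0.422 and kallisto 0.46.2, per the submitters' processing notes; these also name DESeq2 1.26.0 and the builds GRCm38.p6 and mm10. Per the labels' protocols, libraries came from total RNA of frozen muscle with a stranded kit for mRNA. The sources do not give the summing of transcripts to genes or the strand setting.

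Here the lanes were summed and rounded, giving 27352875 to 79491649 counts per library, and tested with edgeR 4.0.16 in R 4.3.3 (quasi-likelihood, TMM, default filter with minimum count 10, all libraries of a tissue in 1 fit, Benjamini-Hochberg adjustment over all genes, threshold 0.05). SEs were worked back from the log2 fold change and the F statistic of the test. The 95% intervals used these SEs and the normal distribution, so they are somewhat narrower than the test itself implies. Of 23621 gene identifiers, 23614 matched a RefSeq symbol. No pair of replicates differed by as little as sampling noise. The library names carry distinct tags, but the labels do not say outright that these stand for separate animals. The p-values therefore measure the spread between these samples. The members and lists were chosen with earlier results of these data known. Values in every library were given for Ulk1, Gabarapl1, Map1lc3b, Sqstm1, Bnip3l and Ctsl and for the 6 other members with the smallest p among those called in a treadmill comparison. In other comparisons up to 4 called members with the smallest p were given with group values, and in each further list up to 4 called genes per treadmill comparison; further genes and values were chosen after they were seen. Alternatives were fitted and adjusted over all genes kept in each, and followed gene by gene for the 40. They were DESeq2 1.42.0, its size factors, no filter, a replicate block and marker scores as covariates. Further ones were only the compared libraries, another sedentary control and each library left out in turn. The scripts were tested on simulated data.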

Additional observations from a re-analysis of the deposited data

Results flagged for a closer look

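For 14 members that the results turn on, the 4 libraries of each wheel group were checked for a library far from the others, 56 groups in all; chance alone picks out about 1 in 20. There were 2. Sqstm1 had 505 CPM in night wheel ZT4 replicate 4, against 445, 447 and 442 CPM in the other three. Pik3c3 had 16.3 CPM in day wheel ZT4 replicate 4, against 15, 15 and 14.9 CPM in the other three.

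In quadriceps, the +3h response of Atg14 was larger in the ZT12 session than in the ZT0 session by 0.57 on the log2 scale, and the sedentary controls of the sessions differed in Atg14 as well. In gastrocnemius, the change at ZT16 against ZT4 was lower under day access than under night access for 7 genes: Retreg1 (-1.60), Gabarapl1 (-1.22), Atp6v1a (-1.04), Atp6v0d1 (-0.48), Atp6v1h (-0.44), Ctsl (-0.21) and Atp6v1c1 (-0.21). Each of these differences was tested in the fit across all genes.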

How the results depend on the processing

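The count of the 40 genes that passed moved by over 1.5 times in these cases. With an adipocyte score it was 1 at +0h ZT0 (2 as reported), 3 for the F test (7), 3 for sedentary ZT12 against ZT0 (5), 2 for ZT16 against ZT4 (1) and 0 for day against night access at ZT16 (1). With a macrophage score, chosen after seeing the data, it was 0 at +0h ZT0 and 5 for day against night access at ZT4 (8). With only the compared libraries in the fit it was 1 at +0h ZT0, 12 at +3h ZT12 (20) and 2 for sedentary ZT12 against ZT0. DESeq2 gave 5 at +0h ZT0, 3 for day against night access at ZT16 and 5 for ZT16 against ZT4 by night (3). Over all genes DESeq2 called 1447, 369 and 2932 in these comparisons. With the replicate block it was 0 for day against night access at ZT16. Against the other sedentary control it was 2 at +0h ZT12 (0) and 11 at +3h ZT12, where Pik3c3 turned to -0.15. The cause was not tested. Leaving out 1 library at a time gave 1 to 6 and 0 to 1 at +0h in the ZT0 and ZT12 sessions, 7 to 9 and 13 to 18 at +3h, 0 to 0 and 1 to 2 for the differences between sessions, and 3 to 7 for the F test. It gave 3 to 8 for sedentary ZT12 against ZT0, 1 to 2 for ZT16 against ZT4, 5 to 8 and 0 to 1 for day against night access at ZT4 and ZT16, 2 to 4 and 8 to 10 for the time effects by night and by day, and 5 to 7 for their difference.

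Replicate numbers were not used to pair the libraries in the main fit. In no comparison did every same-numbered pair correlate above 0.1 (0.12, 0.02, 0.12 and 0.15 for day against night access at ZT4). Single pairs ran from -0.38 to 0.31. With 3 or 4 libraries per group, this check cannot exclude pairing. With the replicate block the counts were 2, 0, 9 and 20 in the 4 treadmill comparisons, 0 and 1 for the session differences, 5 for the F test, 5 and 1 for the sedentary contrasts, 8 and 0 for day against night access at ZT4 and ZT16, 3 and 11 for the time effects by night and by day, and 6 for their difference. There were 1865 values under alternatives, for the genes that passed in each comparison other than the F test. They also cover the 12 genes followed in every library, in the treadmill comparisons and their differences. Of the values, 1697 stayed on their side of the threshold, 158 no longer passed, 9 newly passed and 1 was lost and turned round. Changes of sign were not counted for genes that passed in neither fit. Genes outside that set newly passed as well, as the count of 24 at +3h ZT12 with an adipocyte score shows. Depth limited these genes little, since their lowest count was 248, and the 3 or 4 libraries per group limit the precision.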
